A study of Homo sapiens with 27 samples.

Results

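The 10 genes described here encode the death receptors FAS, TNFRSF10A, TNFRSF10B and TNFRSF1A, the related receptors TNFRSF10C, TNFRSF10D and TNFRSF1B, the ligands TNFSF10 and TNF, and the brake of the pathway, CFLAR. They were taken as the rows whose Entrez identifier belongs to these symbols, which gave 10 of the 24566 gene rows of the count table. RNA was sequenced from 27 libraries in 9 groups of 3, all at 48 h. A431, a line from a squamous cell carcinoma of the skin, was left untreated, given a vehicle whose content the labels do not state, given CKI (1 mg/ml), given doxorubicin, or given CKI with doxorubicin. MDA-MB-231, a line from a breast cancer without hormone receptors, was left untreated, or given CKI (1 mg/ml), 5-FU (10 µg/ml) or both. CKI is Compound Kushen Injection, an extract of the roots of Kushen with Baituling. Doxorubicin blocks topoisomerase II and damages DNA, and 5-FU (5-fluorouracil) blocks thymidylate synthesis and enters RNA. No dose of doxorubicin could be assigned to its libraries from the labels, and MDA-MB-231 had no vehicle group. Each line stands for 1 tumour. The labels do not say that replicates were separate cultures, so p-values measure only the spread between these libraries, which may be technical.

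Death receptors are surface proteins of the TNF receptor superfamily with a cytoplasmic death domain. Binding of a trimeric ligand (TRAIL, the product of TNFSF10, to TNFRSF10A and TNFRSF10B; FAS ligand to FAS) gathers the adaptor FADD and pro-caspase-8, and activated caspase-8 cleaves the effector caspases. TNFRSF10C and TNFRSF10D bind TRAIL without a working death domain and are called decoys, and CFLAR (cFLIP), a relative of caspase-8, holds the complex in check. TNF binds TNFRSF1A, which has a death domain and also leads to NF-kappa-B, and TNFRSF1B, which has none.

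Library totals ran from 17757206 to 22809339 counts. Levels are given as normalized CPM (the count scaled to a library of fixed size, after TMM scaling over all 27 libraries), per library in replicate order or as mean ± SD of 3. Changes are log2 fold changes from edgeR's quasi-likelihood test, with Benjamini-Hochberg adjustment over all genes tested. A gene was called where the adjusted p was under 0.05 and the absolute log2 fold change was over 1. The comparisons with untreated cells share the 3 untreated libraries of their line. Of the epithelial markers, KRT5 lay between 1460 and 3790 CPM in the A431 libraries and at or under 3.91 CPM in MDA-MB-231. Vimentin (VIM), a mesenchymal marker, lay between 706 and 1960 CPM in MDA-MB-231 and at or under 38.3 CPM in A431, and ZEB1 also separated the lines. The other 3 genes listed with them did not: SPARC was low in both (0 to 0.987 CPM in A431, 0.758 to 3.65 CPM in MDA-MB-231), and FN1 (177 to 1130 and 419 to 1240 CPM) and CD44 (533 to 1170 and 646 to 899 CPM) were high in both. EGFR, listed for A431, was also present in MDA-MB-231 (151 to 361 CPM, beside 823 to 3570 CPM in A431). ESR1 did not pass 0.37 CPM in MDA-MB-231. Blood, liver and immune markers (6 genes) summed to 3.46 CPM at most in A431 and to 2.19 CPM in MDA-MB-231. PECAM1 was not analysed here.

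The promoters of the 2 ligands are shown because TNFSF10 had the largest change of any member in MDA-MB-231 and both were called with doxorubicin in A431, where interferon-induced genes, described further on, were called as well. The stretch printed is the 250 bases before the start, 5′ to 3′ on the strand of the gene, credited to RefSeq (GRCh38.p14), for TNF chr6:31575315-31575564 on the plus strand and for TNFSF10 chr3:172523431-172523680 on the minus strand. Capitals mark a TATA box (TATAAA), a GC box (GGGCGG, here read as its complement) and an interferon-stimulated response element, ISRE (GAAANNGAAA, also read as its complement).
TNF: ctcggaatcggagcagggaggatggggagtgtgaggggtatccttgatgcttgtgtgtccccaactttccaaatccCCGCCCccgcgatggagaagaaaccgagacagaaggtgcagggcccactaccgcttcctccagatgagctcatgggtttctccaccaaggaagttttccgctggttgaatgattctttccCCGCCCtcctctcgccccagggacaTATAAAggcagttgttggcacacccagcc
TNFSF10: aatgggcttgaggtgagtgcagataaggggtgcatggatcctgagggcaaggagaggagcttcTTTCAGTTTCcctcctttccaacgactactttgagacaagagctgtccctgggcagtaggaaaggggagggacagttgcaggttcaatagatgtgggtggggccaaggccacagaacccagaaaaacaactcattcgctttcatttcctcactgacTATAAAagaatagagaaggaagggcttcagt

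The TATA box of TNFSF10 covered bases 31 to 26 before the start, and that of TNF bases 29 to 24. The ISRE of TNFSF10 covered bases 187 to 178 before the start. Promoters in the RefSeq table were found for 6 of the 10 members (FAS, TNFRSF1A, TNFRSF1B, TNFSF10, TNF and CFLAR), some with several starts, and the other 4 are only named. With both strands searched in the 250 bases before the start, TATAAA was in the promoters of TNF and TNFSF10 and in 10.7% of the 35116 promoters of the table. GAAANNGAAA was in those of TNFSF10 and TNFRSF1B (3.02% of all). The NF-kappa-B consensus was in those of FAS and CFLAR (5.21% of all), and so was the AP-1 site TGANTCA (6.57% of all), whose letters read alike on both strands. GGGCGG was in those of CFLAR, FAS, TNF and TNFRSF1B (42.6% of all), and the GAS element TTCNNNGAA in none of the 6 (6.57% of all). These matches describe letters, not sites that were shown to be bound.

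The first question was how many of the 10 genes changed with each treatment. In A431, CKI raised 3 of the 10 (TNFRSF10D, TNFRSF1B and CFLAR) and lowered none, where 22.4% of the 15881 genes tested were called. By the adjusted p alone 5 were higher and none lower, against a background of 67% of all genes. Doxorubicin raised 4 (TNFRSF1B, TNF, TNFSF10 and CFLAR) and lowered 1 (TNFRSF1A), where 37.3% of all genes were called, and 6 were higher and 2 lower by the adjusted p alone (background 80.6%). CKI with doxorubicin raised 3 (TNFRSF1B, TNF and CFLAR) and lowered 1 (TNFRSF10C) against untreated cells, beside 35.5% of all genes, with 7 higher and 2 lower by the adjusted p alone (background 79.2%). The vehicle raised TNF alone, where 2.54% of all genes were called, and by the adjusted p alone 5 members were higher and 1 lower (background 42.5%). In these bulk libraries, fewer cells that express a gene and less of its RNA in each cell cannot be told apart. The medians of the members' log2 fold changes were 0.40 with CKI, 0.61 with doxorubicin, 0.64 with both and 0.31 with vehicle, beside medians over all genes of 0.0028, 0.0172, 0.0452 and 0. Read against the background, the members were called about as often as other genes with each treatment, and the excess with vehicle was a single gene.

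MDA-MB-231 gave fewer calls. TNF did not pass the filter on low counts there, which left 9 members tested among 13999 genes. CKI lowered TNFSF10 and raised none of the 9, where 5.96% of all genes were called, and by the adjusted p alone 1 was higher and 5 lower (background 36.2%). 5-FU raised TNFRSF10A and lowered none, beside 13.3% of all genes, with 4 higher and 4 lower by the adjusted p alone (background 57.1%). CKI with 5-FU lowered TNFSF10 and raised none, beside 9.04% of all genes, with 3 higher and 4 lower by the adjusted p alone (background 49.7%). The members' median log2 fold changes were -0.24, 0.29 and -0.016, beside -0.0075, -0.0037 and 0.0154 over all genes.

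**Figure D1:**
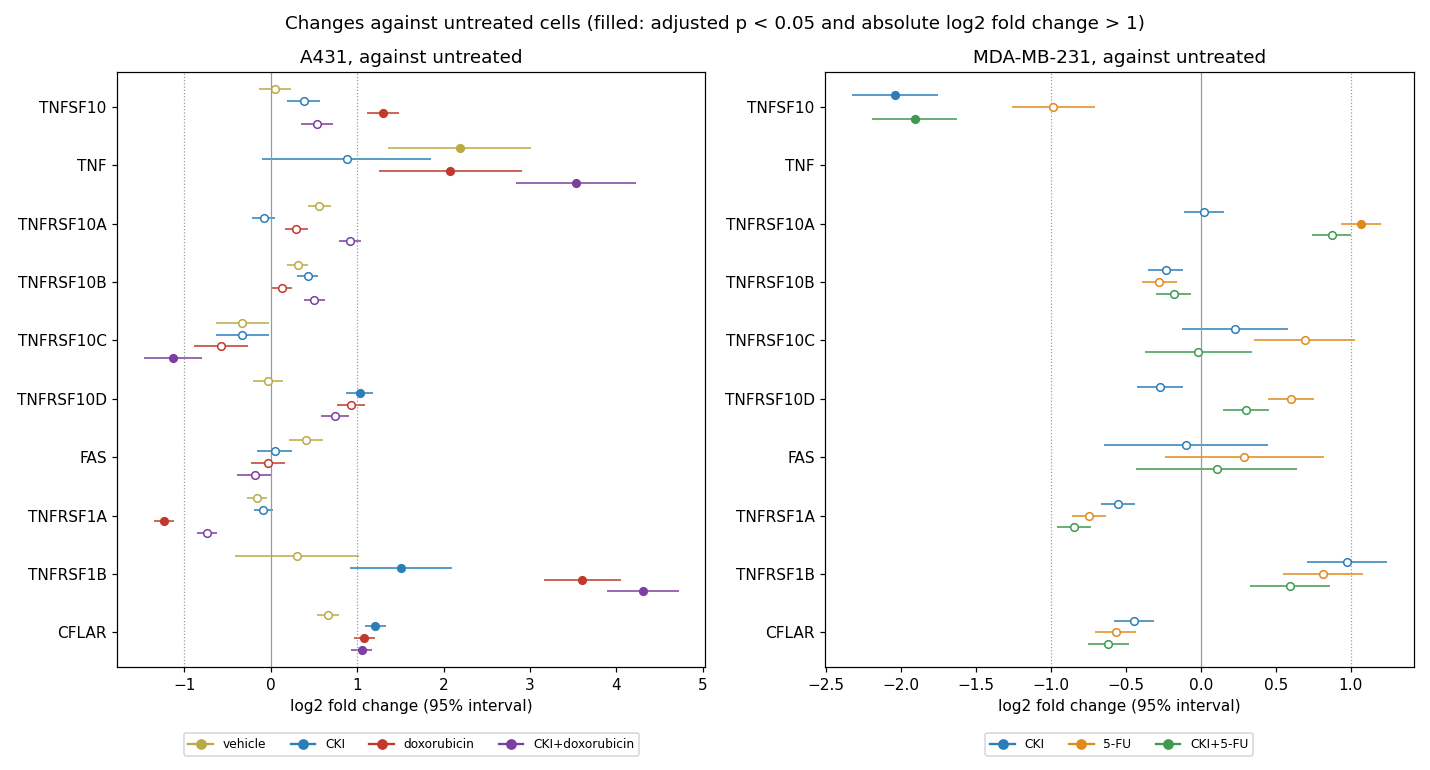
Log2 fold change against untreated cells (x axis) of each of the 10 genes (y axis) in A431 (left) and MDA-MB-231 (right), with 95% intervals, 3 libraries a group, and filled points for called changes. TNFSF10 lies at 1.30 with doxorubicin in A431 and at -2.04 with CKI in MDA-MB-231, and TNF has no point in MDA-MB-231, where it was not tested.

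TNFSF10 encodes TRAIL, the ligand that can kill tumour cells through TNFRSF10A and TNFRSF10B, and its messenger went in different directions in the 2 lines. The gene lies at chr3:172223298-172241265 on the minus strand (hg19). Untreated MDA-MB-231 libraries held 366, 251 and 242 CPM, the CKI libraries 68.7, 72.3 and 67.9 CPM, the 5-FU libraries 139, 139.6 and 154 CPM, and those with both agents 73.3, 77.8 and 76.3 CPM. All treated libraries lay under all untreated ones, and the first untreated library stood well above the other two. CKI lowered TNFSF10 by a log2 fold change of -2.04 (SE 0.13, adjusted p = 4.33e-07), and CKI with 5-FU by -1.91 (SE 0.13, adjusted p = 3.86e-07). With 5-FU alone the value was -0.98 (SE 0.13, adjusted p = 3.63e-05), just inside the limit and so not called. Without the first untreated replicate these 3 values were -1.83, -1.70 and -0.77. The 5-FU value passed the limit without the second (-1.07) or the third (-1.09) untreated library, without the third 5-FU library (-1.03) and with offsets for GC content and length (-1.09).

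In A431 the same gene started lower and rose. Untreated libraries held 65.6, 66.3 and 64.8 CPM, and vehicle libraries 79.5, 67.2 and 54.5 CPM, a wider spread on both sides of them. CKI libraries held 91.3, 90.4 and 88.2 CPM, doxorubicin libraries 161, 183 and 158 CPM, and libraries with both 96.6, 99.3 and 95.4 CPM. Doxorubicin raised TNFSF10 by 1.30 (SE 0.089, adjusted p = 6.91e-12), while CKI alone (0.38) and the combination (0.54) passed the adjusted p but not the fold limit. Adding CKI to doxorubicin gave -0.76 against doxorubicin alone (SE 0.087, adjusted p = 8.75e-08). The combination libraries stood between those of CKI and doxorubicin with no overlap among the 3 groups. Tested against CKI alone, however, the combination gave 0.16 (95% interval -0.02 to 0.34, adjusted p = 0.104) and did not pass. The vehicle against untreated gave 0.05 (95% interval -0.14 to 0.24).

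TNF encodes tumour necrosis factor, the founding ligand of the family (chr6:31543342-31546113, plus strand), and its counts were low in every library. Untreated A431 libraries held 6, 2 and 8 counts, CKI libraries 18, 9 and 8, doxorubicin libraries 33, 29 and 21, libraries with both 93, 80 and 60, and vehicle libraries 26, 31 and 23. The counts with both agents exceeded those of all other A431 groups, and the vehicle and doxorubicin groups overlapped. Log2 fold changes against untreated were 2.19 with vehicle (SE 0.40, adjusted p = 0.000165), 2.08 with doxorubicin (SE 0.40, adjusted p = 5.8e-05) and 3.53 with both (SE 0.33, adjusted p = 1.82e-09). CKI alone gave 0.88 (95% interval -0.10 to 1.86), which did not pass, although it was called without the third untreated library (1.33) and with offsets for GC content and length (1.16). With 1 library left out at a time the value ran from 0.44 to 1.33. Against the vehicle group, CKI was lower by a called -1.31 (SE 0.33, adjusted p = 0.00151), and doxorubicin differed from vehicle by -0.11. The direction of the CKI and doxorubicin values for TNF thus depended on which control was used. In MDA-MB-231 the untreated libraries had 0 counts of TNF, which allows up to 0.150, 0.132 and 0.141 CPM (3 counts; counting error only). The treated MDA-MB-231 libraries had 0 to 5 counts, the most with 5-FU (5, 5 and 2).

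**Figure D2:**
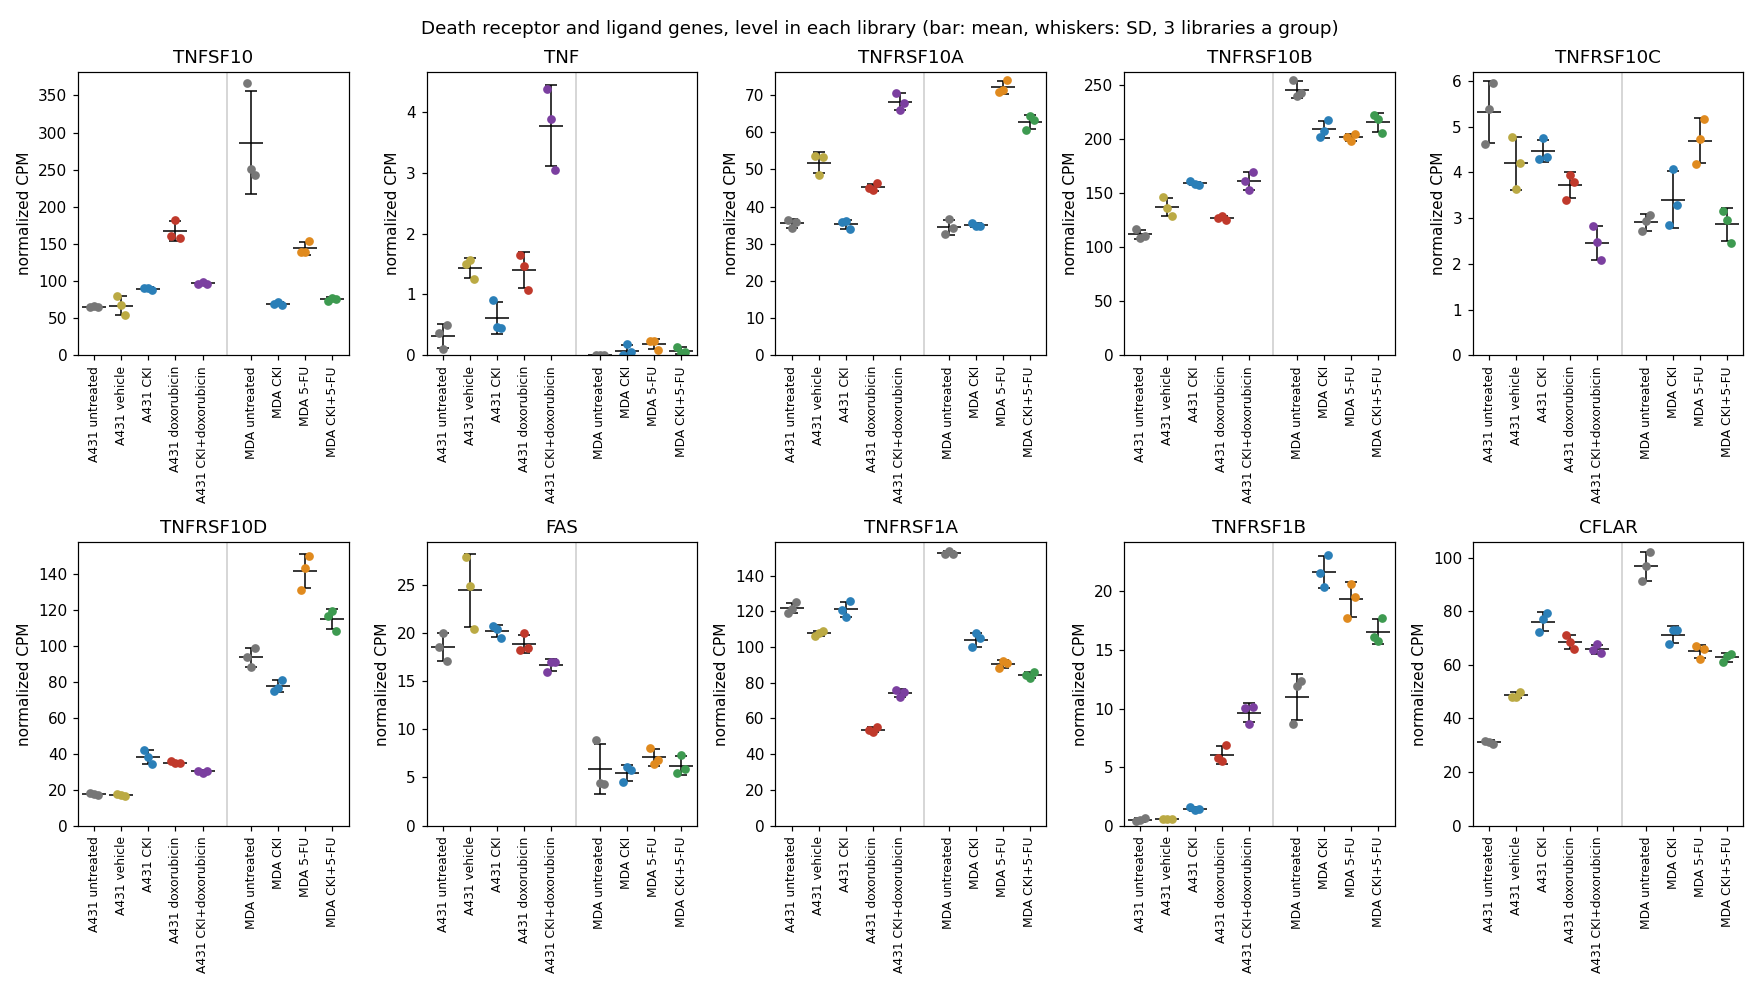
Normalized CPM (y axis, from 0, own scale in each panel) of the 10 genes in all 27 libraries, by group (x axis), with the mean as a bar and the SD as whiskers. TNFSF10 reached 366 CPM in 1 untreated MDA-MB-231 library, and TNF stayed under 5 CPM in every library.

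TNFRSF10A (DR4), a TRAIL receptor with a death domain, was higher with each drug, and was called with 5-FU. It lies at chr8:23047965-23082615 on the minus strand, and its exons overlap those of the opposite-strand RNAs TNFRSF10A-AS1 and TNFRSF10A-DT, from which unstranded counts cannot be told apart. Untreated MDA-MB-231 libraries held 32.7, 36.6 and 34.1 CPM, CKI libraries 35.6, 34.8 and 34.8 CPM, 5-FU libraries 70.7, 71.3 and 74.2 CPM, and libraries with both 60.6, 64.4 and 63.3 CPM. The untreated and CKI groups overlapped, and both groups with 5-FU stood above them. 5-FU raised it by 1.07 (SE 0.060, adjusted p = 5.37e-08), and CKI with 5-FU gave 0.87, past the adjusted p only. In A431 the untreated mean was 35.5 ± 1.17 CPM, that with CKI 35.3 ± 1.19 CPM, with doxorubicin 45.2 ± 0.970 CPM, with vehicle 51.8 ± 2.81 CPM and with both agents 68.2 ± 2.33 CPM. The combination gave 0.92 against untreated, just under the limit, and 1.0004 against CKI, just over it. That last call was lost without the first or the third CKI or combination library (0.96 to 1.00), with a replicate block (1.00) with no filter on low counts (0.97) and with GC and length offsets (0.83), while the value against untreated was called with library size alone (1.23) or the stricter count filter (1.05). Doxorubicin gave 0.30 against untreated cells and -0.27 against vehicle.

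TNFRSF10B (DR5), the other signalling TRAIL receptor (chr8:22877646-22926544, minus strand), held the largest share of the counts of the 4 TRAIL receptors in each group and was not called with any treatment. Its exons overlap those of RHOBTB2 on the opposite strand. The A431 means were 112 ± 4.04 CPM untreated, 127 ± 1.66 CPM with doxorubicin, 137 ± 8.54 CPM with vehicle, 159 ± 1.59 CPM with CKI and 161.5 ± 8.6 CPM with both agents. CKI gave 0.43 and the combination 0.50, both past the adjusted p and under the fold limit. The MDA-MB-231 means ran from 202 ± 3.20 CPM with 5-FU to 246 ± 7.94 CPM untreated, and the 3 treated groups lay 0.18 to 0.28 below untreated on the log2 scale. No comparison among treatments called it.

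The decoy TNFRSF10D (chr8:22993101-23021540, minus strand) carries a truncated death domain. Untreated A431 libraries held 18.3, 17.7 and 17.2 CPM, vehicle libraries 17.5, 17.3 and 16.6 CPM, CKI libraries 42.2, 38.1 and 34.0 CPM, doxorubicin libraries 35.9, 34.7 and 34.6 CPM, and libraries with both 30.5, 29.3 and 30.6 CPM. All treated libraries exceeded all untreated and vehicle libraries, which overlapped each other. CKI raised it by 1.03 (SE 0.077, adjusted p = 4.16e-11), doxorubicin gave 0.93 and the combination 0.74. The CKI call was lost without the first CKI library (0.95) and with GC and length offsets (0.95), and the doxorubicin value was called with RLE factors (1.02), DESeq2 (1.02), library size alone (1.27), the stricter count filter (1.10) or the compared groups alone (1.01). In MDA-MB-231 the level was higher throughout, at 93.6 ± 5.20 CPM untreated, 77.6 ± 3.34 CPM with CKI, 142 ± 9.42 CPM with 5-FU and 115 ± 5.69 CPM with both. These 4 groups did not overlap, and the log2 fold changes of -0.27, 0.60 and 0.30 against untreated passed the adjusted p alone.

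TNFRSF10C, the decoy anchored by a lipid tail (chr8:22960434-22974958, plus strand), was low everywhere. A second row of the table carries the same Ensembl identifier with the same counts, and its exons overlap other genes on the same strand, so its counts are uncertain. The A431 means were 5.33 ± 0.679 CPM untreated, 4.47 ± 0.249 CPM with CKI, 4.21 ± 0.579 CPM with vehicle, 3.72 ± 0.285 CPM with doxorubicin and 2.46 ± 0.367 CPM with both. The combination lowered it by a log2 fold change of -1.13 (SE 0.16, adjusted p = 1.1e-06), from 77, 98 and 96 counts to 60, 51 and 41. With offsets for GC content and length the value was -0.895, with library size alone -0.818 and against vehicle -0.81, all under the limit. In MDA-MB-231 the means lay between 2.86 and 4.69 CPM, with the highest in the 5-FU group (0.69, past the adjusted p alone).

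Within the TNFRSF10 family the balance of the 4 genes differed between the lines and with treatment. The decoys took 13.5% ± 0.441 of the family's counts in untreated A431, 10.2% ± 0.105 with vehicle, 18.0% ± 1.22 with CKI, 18.4% ± 0.186 with doxorubicin and 12.4% ± 0.321 with both. In MDA-MB-231 they took 25.6% ± 1.10 untreated, 24.9% ± 0.241 with CKI, 34.8% ± 1.38 with 5-FU and 29.7% ± 0.486 with both. The lowest 5-FU library (33.2%) exceeded the highest library with both agents (30.2%), which exceeded the highest untreated library (26.9%). The share of TNFRSF10B in MDA-MB-231 went from 65.2% ± 1.11 untreated to 48.1% ± 1.22 with 5-FU, while that of TNFRSF10A went from 9.15% ± 0.735 to 17.2% ± 0.157. No test was run on these shares.

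**Figure D3:**
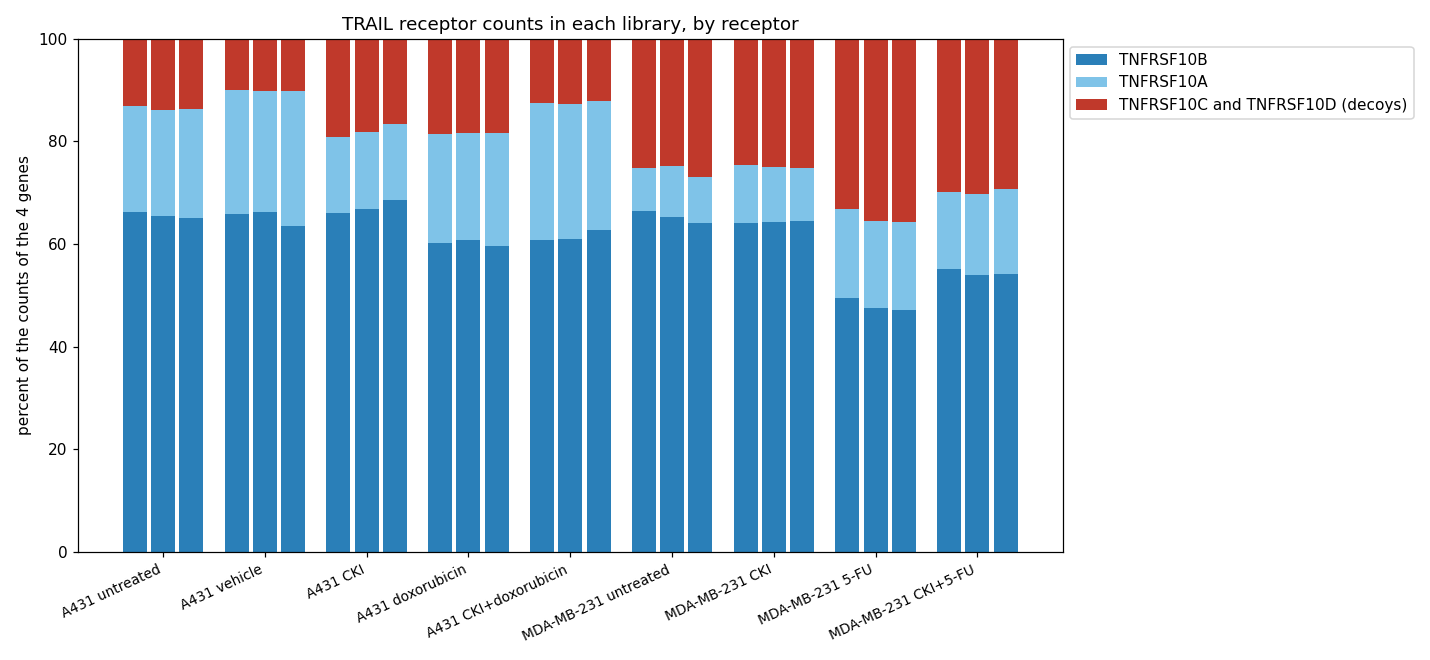
Percent of the counts of the 4 TNFRSF10 genes (y axis, 0 to 100) that fell on TNFRSF10B, TNFRSF10A and the 2 decoys, 1 bar for each of the 27 libraries (x axis, by group). The decoy share is 10.1% to 10.3% in the vehicle libraries and 33.2% to 35.7% in the 5-FU libraries.

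FAS, the receptor of FAS ligand (chr10:90750414-90775542, plus strand), was not called in any comparison among treatments. Its exons overlap those of ACTA2 on the opposite strand. Untreated A431 libraries held 18.6, 20.0 and 17.2 CPM, and the vehicle libraries 28.0, 24.9 and 20.5 CPM, above them but widely spread. The vehicle gave 0.41 (95% interval 0.22 to 0.61), doxorubicin -0.03 (-0.23 to 0.17) and the combination -0.18 (-0.39 to 0.0177). In MDA-MB-231 the untreated libraries held 8.87, 4.41 and 4.35 CPM, and the 3 treated means lay between 5.45 and 7.10 CPM, inside that range. The intervals there were wide, for CKI -0.65 to 0.45 and for 5-FU -0.24 to 0.82, and smaller changes were not detectable. FASLG, the gene of its ligand, did not pass the filter in either line.

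TNFRSF1A, the TNF receptor with a death domain (chr12:6437923-6451280, minus strand), fell with doxorubicin. Untreated A431 libraries held 119, 121 and 125 CPM, CKI libraries 121, 117 and 126 CPM, doxorubicin libraries 53.5, 52.3 and 55.3 CPM, and libraries with both 76.1, 72.1 and 74.6 CPM. The CKI group overlapped the untreated one, and the doxorubicin group lay under all others. Doxorubicin lowered it by -1.24 (SE 0.055, adjusted p = 2.93e-15), and the combination gave -0.74, with 0.50 between the combination and doxorubicin alone (adjusted p = 5.71e-08). With library size alone in place of scaling factors, which moved the median of all genes by 0.34, the doxorubicin value was -0.89 and not called. In MDA-MB-231 all treated groups lay below the untreated level of 153 ± 0.964 CPM, at 104 ± 3.94 CPM with CKI, 90.4 ± 2.13 CPM with 5-FU and 84.3 ± 1.78 CPM with both. The log2 fold changes of -0.55, -0.75 and -0.85 passed the adjusted p and stayed under the fold limit.

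TNFRSF1B, the TNF receptor without a death domain (chr1:12227048-12269285, plus strand), rose from almost nothing in A431. Untreated libraries held 6, 8 and 10 counts (0.474 ± 0.134 CPM) and vehicle libraries 10, 11 and 11 counts. CKI libraries held 31, 25 and 25 counts, doxorubicin libraries 115, 108 and 134, and libraries with both 214, 179 and 199. The CKI, doxorubicin and combination groups lay in that order with no overlap. The log2 fold changes were 1.51 with CKI (SE 0.28, adjusted p = 6.12e-05), 3.61 with doxorubicin (SE 0.22, adjusted p = 5.34e-13) and 4.31 with both (SE 0.20, adjusted p = 5.72e-15). Against vehicle, CKI gave 1.20 (SE 0.27, adjusted p = 0.000376). MDA-MB-231 libraries held 8.71, 11.9 and 12.3 CPM untreated, 21.6, 20.4 and 23.1 CPM with CKI, 17.7, 20.7 and 19.6 CPM with 5-FU, and 16.2, 15.8 and 17.8 CPM with both. All treated libraries exceeded the untreated ones, and the 3 treated means fell in the order CKI, 5-FU, both, with neighbours overlapping. CKI gave 0.97 (SE 0.12, adjusted p = 8.63e-05), just inside the limit, and was called without the second or the third untreated library or the second CKI library (1.03 to 1.06) and with library size alone (1.05). Leaving out 1 library at a time gave 0.83 to 1.06.

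CFLAR, the inhibitor of caspase-8 at the receptor (chr2:201980877-202041410, plus strand), rose in A431. Untreated libraries held 31.7, 31.4 and 30.5 CPM, vehicle libraries 48.0, 48.1 and 49.9 CPM, CKI libraries 72.1, 77.0 and 79.4 CPM, doxorubicin libraries 71.3, 68.5 and 66.0 CPM, and libraries with both 65.5, 67.7 and 64.4 CPM. The vehicle group stood between the untreated group and the 3 treated groups, with no overlap on either side. CKI raised CFLAR by 1.21 (SE 0.059, adjusted p = 2.29e-14), doxorubicin by 1.08 (SE 0.060, adjusted p = 1.16e-13) and both by 1.05 (SE 0.060, adjusted p = 2.01e-13), and the vehicle value was 0.66 (SE 0.061, adjusted p = 2.78e-08). None of the 3 was called against the vehicle group (0.55, 0.42 and 0.39) or with offsets for GC content and length (0.83, 0.92 and 0.71). Across all genes the vehicle's log2 fold change ran against GC content (Spearman rho -0.58 over 15843 genes) and with transcript length (0.31). The values for GC and length were -0.10 and 0.25 for CKI, -0.10 and 0.01 for doxorubicin, and -0.21 and 0.12 for both. The part of either in the CFLAR result was not tested beyond these offsets. The gene has a long and variable transcript, and its exons overlap CFLAR-AS1.

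In MDA-MB-231 CFLAR started higher, at 91.4, 97.0 and 102 CPM, and the treated groups lay below. The means were 71.2 ± 3.12 CPM with CKI, 65.0 ± 2.47 CPM with 5-FU and 62.8 ± 1.64 CPM with both, and no treated library reached an untreated one. The log2 fold changes of -0.45, -0.57 and -0.62 passed the adjusted p (the largest was 0.000173) and not the fold limit. Over 13965 genes of this line, Spearman rho with GC content was 0.11 for CKI, -0.16 for 5-FU and -0.33 for both. For both against CKI alone it was -0.52.

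A further question was whether CKI acted alike with and without the drug. In A431 the combination against doxorubicin alone raised 1 member, TNF (1.45, SE 0.24, adjusted p = 1.41e-05), and lowered none, where 14.9% of all genes were called. By the adjusted p alone 5 were higher and 3 lower (background 63.6%). Against CKI alone the combination raised 3 (TNFRSF1B by 2.80, TNF by 2.66 and TNFRSF10A by 1.0004) and lowered none, beside 25.7% of all genes, with 3 higher and 5 lower by the adjusted p alone (background 73.3%). The test of the difference between the CKI effect with and without doxorubicin (interaction) called 3 members lower and none higher, beside 19.5% of all genes, with 2 higher and 4 lower by the adjusted p alone (background 57.4%). These were CFLAR (-1.24, SE 0.081), TNFRSF10D (-1.22, SE 0.11) and TNFSF10 (-1.14, SE 0.12). For CFLAR the CKI effect was 1.21 without doxorubicin and -0.03 with it, for TNFRSF10D 1.03 and -0.19, and for TNFSF10 0.38 and -0.76. With vehicle in place of untreated cells the CFLAR interaction was -0.58 and not called, and those of TNFRSF10A (1.27) and TNF (2.77) were.

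**Figure D4:**
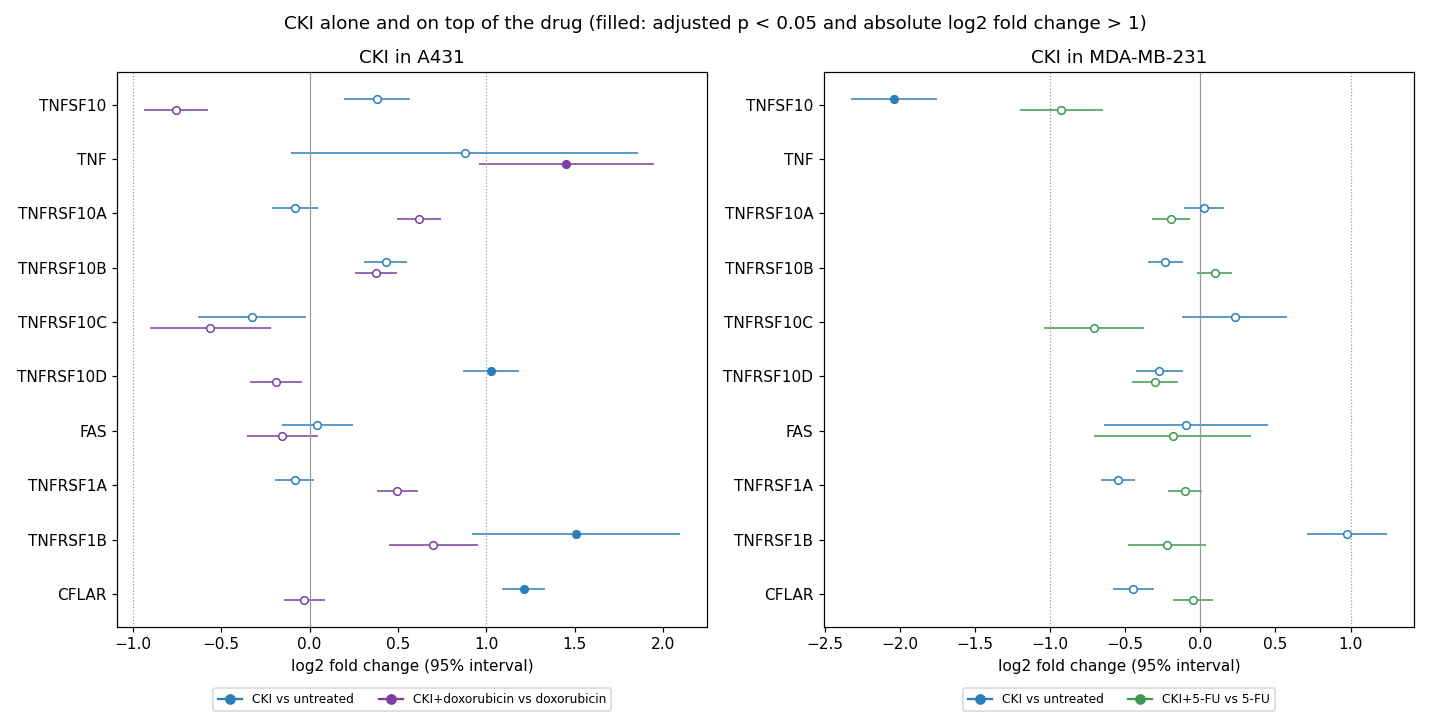
Log2 fold change of CKI against untreated cells and of CKI with the drug against the drug alone (x axis, 95% intervals, 3 libraries a group) for each gene (y axis), in A431 with doxorubicin (left) and MDA-MB-231 with 5-FU (right), filled where called. For CFLAR in A431 the points lie at 1.21 and -0.03, and for TNFSF10 in MDA-MB-231 at -2.04 and -0.93.

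In MDA-MB-231 the combination differed from either agent without a call by edgeR among the 9 members. Against 5-FU alone 0 were called by edgeR or DESeq2, beside 9.77% of all genes, and 4 were lower and none higher by the adjusted p alone (background 50.4%), the same number as at an unadjusted p under 0.05. The furthest of them was TNFSF10 (-0.93, SE 0.13). Against CKI alone 0 were called by edgeR or DESeq2, beside 3.81% of all genes, and 2 were higher and 3 lower by the adjusted p alone (background 42.1%), again as at an unadjusted p under 0.05. TNFRSF10A (0.85) and TNFRSF10D (0.58) were the higher ones. The interaction called TNFSF10 higher (1.12, SE 0.18, adjusted p = 0.000731) and TNFRSF1B lower (-1.19, SE 0.17, adjusted p = 0.000358), beside 6.84% of all genes, with 4 higher and 2 lower by the adjusted p alone (background 31.4%). For TNFRSF1B the CKI effect was 0.97 without 5-FU and -0.22 with it. The TNFSF10 interaction was 0.90 and not called without the first untreated library, and 0.98 with GC and length offsets.

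CKI was also set against the vehicle in A431, the only line with such a group. CKI raised TNFRSF10D (1.06) and TNFRSF1B (1.20) and lowered TNF (-1.31), where 19.5% of all genes were called, and by the adjusted p alone 4 members were higher and 3 lower (background 65%). Without the first CKI library the TNFRSF10D value was 0.98. TNFRSF10A was lower than in the vehicle group by -0.65 and FAS by -0.37, both past the adjusted p alone.

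Between the untreated lines, 6 of the 9 members tested were called, beside 42.9% of the 14848 genes tested in a fit of 12 libraries, those left untreated and those given CKI in each line. FAS was higher in A431 (1.71, SE 0.22), while TNFRSF1B (-4.48, SE 0.21), TNFRSF10D (-2.36, SE 0.089), TNFSF10 (-2.09, SE 0.13), CFLAR (-1.59, SE 0.069) and TNFRSF10B (-1.09, SE 0.063) were lower. By the adjusted p alone 2 were higher and 6 lower in A431 (background 78.6%), and TNFRSF10A (0.08, 95% interval -0.06 to 0.23) was the member that did not pass. The median over the 9 was -1.09, beside 0.09 over all genes. With the vehicle group standing for A431, CFLAR (-0.93) and TNFRSF10B (-0.78) were no longer called, and TNF, which had not been tested between the untreated groups, was tested and called, so that 5 members were called in all. Line and preparation cannot be told apart, since the labels give 1 line each and no shared batch.

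Per kilobase of the annotated transcript, TNFRSF1A stood first among the untreated receptors, at 56.1 ± 1.37 CPM per kilobase in A431 and 70.3 ± 0.435 in MDA-MB-231, followed by TNFRSF10B at 28.0 ± 1.01 and 61.5 ± 1.98. In A431 TNFRSF10A followed at 13.2 ± 0.433 and FAS at 7.25 ± 0.551, above TNFRSF10D at 5.02 ± 0.167. In MDA-MB-231 TNFRSF10D (26.5 ± 1.47) stood above TNFRSF10A (12.8 ± 0.738), and FAS (2.29 ± 1.01) and TNFRSF10C (2.09 ± 0.132) could not be ordered within their spread. TNFSF10 stood at 35.0 ± 0.380 in A431 and at 153 ± 36.9 in MDA-MB-231, above every receptor of that line. The order depended on the length used, at the top and lower down. Per kilobase of the union of exons TNFRSF1A (29.0) stayed above TNFRSF10B (22.4) in A431, while in MDA-MB-231 TNFRSF10B (49.1) stood above TNFRSF1A (36.3). FAS (5.21) and TNFRSF10D (5.02) in A431 lay close together by that length. TNFSF10 stood at 19.1 CPM per kilobase in A431 and at 83.3 in MDA-MB-231 on that scale.

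The effect of CKI differed between the lines for 3 of the 9 members, beside 18.5% of all genes, each with the A431 value above the MDA-MB-231 value. These were TNFSF10 (interaction 2.43, SE 0.18, adjusted p = 3.77e-07), CFLAR (1.66, SE 0.095, adjusted p = 4.17e-08) and TNFRSF10D (1.31, SE 0.12, adjusted p = 1.82e-06). By the adjusted p alone 5 were higher and none lower (background 47%). The CKI values side by side were 0.38 and -2.04 for TNFSF10, 1.21 and -0.45 for CFLAR, and 1.03 and -0.27 for TNFRSF10D. For TNFRSF1B, which was above untreated in both lines, the interaction of 0.54 (95% interval -0.16 to 1.23) did not pass.

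The rest of the pathway was read from a list of 54 genes, of which 51 were tested in A431 and 47 in MDA-MB-231. The 15 adaptors and caspases, among them FADD, CASP8 and BID, gave 0 calls by edgeR or DESeq2 with CKI in either line, with vehicle, with 5-FU or with CKI and 5-FU. At an unadjusted p under 0.05 edgeR counted 13 of the 15 with CKI in A431, 8 with vehicle, 2 with CKI in MDA-MB-231, 12 with 5-FU and 9 with CKI and 5-FU. The shares of all genes called in that order were 22.4%, 2.54%, 5.96%, 13.3% and 9.04%. Doxorubicin lowered FAF1, a FAS-associated factor, from 84.6 ± 1.55 to 11.5 ± 0.137 CPM (-2.93, SE 0.068), and raised DIABLO, which releases caspases from their inhibitors. FAF1 also fell with the combination (-2.04, SE 0.063). Of all genes, 37.3% were called with doxorubicin and 35.5% with the combination.

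Of the 16 genes of the TNF receptor complex, CKI raised 3 in A431 (beside 22.4% of all genes called) and the vehicle 1 (beside 2.54%). TNFAIP3 (A20), an ubiquitin-editing enzyme that ends NF-kappa-B signalling, went from 82.7 ± 4.43 CPM untreated to 357 ± 15.1 CPM with CKI (2.03, SE 0.054) and to 830 ± 22.8 CPM with vehicle (3.35, SE 0.056), and was lower with CKI than with vehicle. Doxorubicin raised 2, among them the deubiquitinase CYLD (1.52, SE 0.077), and lowered 2, among them the adaptor TRAF2 (-1.65, SE 0.076), beside 37.3% of all genes called. With both agents 4 rose and 1 fell (beside 35.5%), and the adaptor TRAF1 went from 4.28 ± 0.878 to 28.9 ± 2.28 CPM (2.72, SE 0.12). In MDA-MB-231 CKI gave 0 calls among the 16 by edgeR or DESeq2 (4 at an unadjusted p under 0.05), beside 5.96% of all genes. There 5-FU raised 3 (TRAF1 by 2.46, TNFAIP3 by 2.19, and BIRC3), beside 13.3%. The combination raised 2 (BIRC3 by 1.37 and TRAF1 by 1.23), beside 9.04%.

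Among the other ligands and sheddases (8 tested in A431, 6 in MDA-MB-231), TNFSF15, the ligand of TNFRSF25, rose in 5 of the 6 drug or CKI comparisons with untreated cells. It went from 9.05 ± 1.01 CPM in untreated A431 to 115 ± 2.38 CPM with doxorubicin (3.61, SE 0.098) and 79.4 ± 5.82 CPM with both. In MDA-MB-231 it went from 20.2 ± 1.02 CPM to 99.2 ± 8.81 CPM with CKI (2.29), 98.5 ± 3.62 CPM with 5-FU (2.29) and 125 ± 3.55 CPM with both (2.64). CKI in A431 raised ADAM17, the protease that sheds TNF and its receptors, from 42.6 ± 3.17 to 145 ± 3.51 CPM (1.70, SE 0.079), and TNFSF9 (1.73, SE 0.072), and lowered LTB at under 1 CPM (-1.78, SE 0.49). The vehicle lowered TNFSF12 at under 1 CPM (-1.77, SE 0.45) and CD70 (-1.21, SE 0.18), the latter from 6.71 ± 0.426 to 2.86 ± 1.01 CPM. In MDA-MB-231 5-FU lowered ADAM10 (-1.06, SE 0.082) and TNFSF12 (-1.04, SE 0.24). TNFSF12 went from 27 ± 11 CPM, a wide spread, to 13.1 ± 0.347 CPM. LTB in that line, with means under 1 CPM, was lower with CKI (-1.52, SE 0.50) and with both agents (-1.59, SE 0.50).

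The other receptors and decoys (10 tested in A431, 9 in MDA-MB-231) gave 0 calls with CKI or vehicle in A431 by edgeR or DESeq2, and 7 and 6 at an unadjusted p under 0.05. Doxorubicin raised TNFRSF11B, a soluble decoy for TRAIL, from 0.254 to 1.32 CPM (2.29, SE 0.36) and lowered 4. With both agents TNFRSF9 rose from 3.06 ± 0.818 to 25.6 ± 4.14 CPM (3.03, SE 0.16) and TNFRSF21, the death receptor DR6, fell from 1270 ± 52.2 to 536 ± 24.0 CPM (-1.27, SE 0.054). In MDA-MB-231 CKI lowered 3, among them TNFRSF11B (-1.46, SE 0.13) and NGFR (-1.34, SE 0.17), as did the combination (-1.75 and -2.39), and 5-FU raised 1 and lowered TNFRSF14 (-1.06, SE 0.15). The untreated level of NGFR was widely spread (46.6 ± 13.6 CPM, beside 18.5 ± 0.947 with CKI and 8.85 ± 0.556 with both). Of the necroptosis kinase RIPK3 and its substrate MLKL, RIPK3 rose in A431 with CKI (1.51, SE 0.19) and with both agents (1.77, SE 0.18). MLKL was not called and lay below untreated in both comparisons, where the median of the 2 genes was 0.36 and 0.81. In MDA-MB-231 only 1 of the 2 was tested, and it was not called with CKI (-0.85). Over the whole list, CKI called 6 higher and 1 lower in A431 and 1 higher and 4 lower in MDA-MB-231, doxorubicin 6 and 9, the A431 combination 9 and 7, 5-FU 5 and 3, the MDA-MB-231 combination 3 and 5, and vehicle 1 and 2. The list medians in that order were 0.20, -0.12, -0.012, 0.16, 0.20, -0.15 and 0.09, beside medians over all genes of 0.003, -0.007, 0.017, 0.045, -0.004, 0.015 and 0. The shares of all genes called in that order were 22.4%, 5.96%, 37.3%, 35.5%, 13.3%, 9.04% and 2.54%.

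Interferon and NF-kappa-B targets were counted beside these, as background: interferons are known to induce TNFSF10, and NF-kappa-B to induce TNF and CFLAR. Of 12 interferon genes, doxorubicin raised 11 (median 2.95, with MX2 at 5.43 and IFIT2 at 4.01) and CKI with doxorubicin all 12 (median 2.63, with MX2 at 5.10 and OAS1 at 3.12). Of all genes, 37.3% and 35.5% were called in these comparisons, with medians of 0.017 and 0.045. CKI alone raised none and lowered IRF9 (-1.27, median -0.52), and the vehicle gave 0 calls by edgeR or DESeq2 (7 at an unadjusted p under 0.05, median -0.010). Of all genes, 22.4% were called with CKI and 2.54% with vehicle. In MDA-MB-231, CKI lowered 2 of the 12 (MX2 by -1.52 and IFIT2 by -1.11, median -0.63), 5-FU raised IRF7 (1.64, median 0.22), and the combination lowered 3 (MX2 by -1.93 and MX1 by -1.52, median -0.88). In that order 5.96%, 13.3% and 9.04% of all genes were called. Against 5-FU alone the combination lowered 7 and raised 0 (median -1.12), beside 9.77% of all genes. In A431 the combination against doxorubicin alone lowered 1 and raised 0 (median -0.42), beside 14.9%.

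Of 12 NF-kappa-B genes, the vehicle raised 6 in A431 (median 0.90, with CXCL8 at 3.32 and NFKBIZ at 3.30), in the libraries where TNF was also called. CKI raised 3 and lowered 1 (NFKBIZ at 2.13 and CXCL8 at 1.96, median -0.08), doxorubicin raised 2 and lowered 1 (IL6 at 5.66 and ICAM1 at 1.79, median 0.30), and both agents raised 3 (IL6 at 4.29 and ICAM1 at 1.85, median 0.56). Against the vehicle, CKI raised 1 of the 12 and lowered 6 (median -0.94), where 19.5% of all genes were called. Against untreated cells, 2.54% of all genes were called with vehicle, 22.4% with CKI, 37.3% with doxorubicin and 35.5% with both. The medians over all genes in that order were 0, 0.003, 0.017 and 0.045. Of the 11 tested in MDA-MB-231, CKI lowered 3 (CXCL2 by -1.39 and NFKBIZ by -1.13), 5-FU raised 2 (CXCL8 at 2.61 and RELB at 1.39) and the combination lowered NFKBIZ (-1.19). The medians of the 11 were -0.42, 0.72 and -0.08. In that order 5.96%, 13.3% and 9.04% of all genes were called. The part of either pathway in the members' values was not tested.

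Genes with the most similar pattern were named by the Pearson correlation of log2 CPM over the libraries of a line, as a description, since libraries of one group share their treatment. Over the 15 A431 libraries, DENND2D was most like TNFSF10 (r = 0.979), HTATIP2 most like TNFRSF10D (0.987), THEM6 most like TNFRSF1A (0.996), TIGAR most like TNFRSF1B (0.992), ZNF281 most like CFLAR (0.980) and EFNB2 most like TNF (0.939). Over the 12 MDA-MB-231 libraries, RBM3 was most like TNFSF10 (0.990), COX19 most like TNFRSF10A (0.997), with BIRC3 of the pathway list close behind (0.993), UGDH most like TNFRSF10D (0.979), ASNS most like TNFRSF1A (0.993) and AP2B1 most like CFLAR (0.988). FAS had its best match at 0.947 with HAUS6 in A431.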

How the data were processed

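RNA-seq counts per gene from 27 libraries of A431 and MDA-MB-231 cells were used as deposited. Per the labels and the study's methods, the authors trimmed paired-end reads with Trim Galore 0.3.7 and aligned them with STAR 2.5.3a to hg19. The counter and its annotation are not given in the sources used here, and the counts were taken as unstranded. Groups came from the sample titles. In edgeR 4.0.16 (R 4.3.3), genes were filtered with filterByExpr, scaled by TMM and tested by the quasi-likelihood F-test, with all groups of a line in 1 fit (the untreated and CKI groups of both lines for the line comparisons). Benjamini-Hochberg adjustment ran over all genes tested. Levels were scaled over all 27 libraries, so their ratios differ from the fitted changes. The median difference over the more highly expressed genes of a comparison reached 0.095 (log2), and single genes can differ by more. Alternatives were DESeq2 1.42.0, RLE factors, library size alone, other filters, offsets for GC content and transcript length from the GENCODE annotation lifted to GRCh37, a replicate block, the vehicle as control and leaving out each replicate. The fits were tested on simulated data. All 10 members were named, with up to 3 called genes per direction and comparison from the pathway list and 2 from the interferon and NF-kappa-B lists; BIRC3, DIABLO and RIPK3 were named outside this rule, after their values were seen. The members and lists were chosen with earlier results of these data known. The gene most like FAS in MDA-MB-231 is not reported here.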

Additional observations from a re-analysis of the deposited data

Results flagged for a closer look

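For 3 genes in A431 the effect of CKI differed between cells with and without doxorubicin, by edgeR's interaction test. The differences on the log2 scale were -1.22 for TNFRSF10D, -1.14 for TNFSF10 and -1.24 for CFLAR. With vehicle in place of untreated cells that of CFLAR was -0.58 and not called, while those of TNFRSF10A (1.27) and TNF (2.77) were called.

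The CKI effect in MDA-MB-231 was not the same with and without 5-FU, by the same test, for TNFRSF1B (-1.19) and TNFSF10 (1.12). For TNFSF10, the first untreated library held 366 CPM and the other two 251 and 242 CPM, and the difference without that library was 0.90.

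Between the lines, the effect of CKI in A431 minus that in MDA-MB-231 was 2.43 for TNFSF10, 1.66 for CFLAR and 1.31 for TNFRSF10D, past both thresholds in each case. Untreated libraries enter all of these tests, so they are not independent of each other.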

How the results depend on the processing

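The number of members called stayed within 1.5 times in 150 of 165 combinations of a comparison and a setting that were run, replicates left out not included. That number does not follow which members were called. With GC and length offsets CKI in A431 lost TNFRSF10D (0.95) and CFLAR (0.83) and gained TNF (1.16), yet stayed within it. Of 1550 values of single genes over the same settings, 25 fell below the thresholds for a call, 16 came to pass them, and 13 changed sign with an adjusted p under 0.05 before or after the change. The other 1496 kept their side of the thresholds. Of these, 1455 kept their sign and 41 changed it between values that passed the adjusted p in neither fit. The stricter filter (at least 10 counts in every library), which removes TNF and TNFRSF1B in A431, left 0 members called for vehicle against untreated, 1 for CKI against vehicle, 0 for the combination against doxorubicin and 1 for it against CKI. GC and length offsets, with or without the replicate block, gave 2 for CKI with doxorubicin and 2 for 5-FU against untreated, and 1 for the CKI by 5-FU interaction. With library size alone, CKI and CKI with 5-FU each called 2 in MDA-MB-231, and with no filter 5-FU called 2. With vehicle as control doxorubicin called 3 and the combination 2. Apart from the 2 genes removed by the stricter filter, the causes were not tested. Leaving out 1 replicate gave 1 to 2 for CKI and for 5-FU in MDA-MB-231 and 1 to 3 for the CKI by 5-FU interaction. The 13 in A431 were, with library size alone, CFLAR with the combination against CKI (0.048) and FAS with doxorubicin (0.31). With the offsets, with or without the block, they were TNFRSF1A with vehicle (0.08 from -0.16) and with CKI (0.16 from -0.09), and TNFSF10 with vehicle (-0.15, with the block). With vehicle as control they were TNF (-1.31) and FAS (-0.37) with CKI, TNF (-0.11), TNFRSF10A (-0.27) and TNFRSF10B (-0.18) with doxorubicin, and the TNFRSF10B interaction (0.26).

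The replicate block took away 1 call, TNFRSF10A for the combination against CKI (1.00), and kept the number of members called in every comparison within 1.5 times. Same-numbered libraries did not deviate together: of 16 pairs of groups none had all correlations over 0.1 (-0.295 to 0.121), so the numbers were not taken as pairs. Library size alone moved the median of all genes by 0.34 with doxorubicin, 0.32 with it and CKI (0.21 against CKI, -0.14 in the interaction), 0.11 with CKI in A431 against either control, 0.13 with 5-FU, 0.14 with CKI and 5-FU and -0.13 between the lines. The share of calls that were higher went from 61.6% to 78.3% with doxorubicin, 61.2% to 77.5% with it and CKI (64.7% to 76.7% against CKI, 44% to 33% in the interaction), 45.1% to 59.8% with 5-FU, and 47.4% to 62.7% with CKI and 5-FU (33.2% to 45.8% against CKI). Over all genes, the stricter filter took the calls from 404 to 174 for vehicle, 3100 to 1989 for CKI against vehicle, 5925 to 3197 for doxorubicin, 5633 to 3100 for the A431 combination, 2369 to 1431 and 4077 to 1837 for it against doxorubicin and CKI, 835 to 504 for CKI in MDA-MB-231, 1266 to 833 for CKI with 5-FU, 1368 to 903 and 533 to 340 for it against 5-FU and CKI, and 6367 to 3631 between the lines. The vehicle's 404 became 243 with the offsets, 233 with offsets and block and 263 with the compared groups alone, the 533 became 342 and 340 with the offsets without and with the block, and the 4077 became 6171 with no filter. Counts of TNF (0 to 93) and of TNFRSF1B in untreated A431 (6 to 10) limit what could be seen of them.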
